A study of Mus musculus with 57 samples.

Results

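Glutathione S-transferases are described here in the liver of mice given one of 7 hepatotoxic compounds. The 10 genes followed were chosen by symbol, and the table of 54307 Ensembl gene IDs held all of them: Gsta1, Gsta2, Gsta3 and Gsta4 of the alpha class, Gstm1, Gstm2, Gstm3, Gstm4 and Gstm6 of the mu class, and Gstp1 of the pi class. All 10 passed the filter on low counts in each of the 21 comparisons made. The study sequenced liver RNA from 57 mice to evaluate a method that estimates cell types from bulk liver samples. All were wild-type C57BL/6JJcl males, 6 weeks old before 1 week of acclimatisation, fasted for 12 h before dosing and sampled at 24 h from the left lateral lobe of a perfused liver. Gavage was used for acetaminophen (APAP) in 6 mice, for thioacetamide (TAA) in 5, for 4,4'-methylene dianiline (MDA) in 7 and for alpha-naphthyl isothiocyanate (ANIT) in 4. Their vehicle group, Ctrl, had 13 mice given 0.5% methylcellulose by the same route. CCl4 (7 mice) and galactosamine (GAL, 4 mice) were given intraperitoneally and were set against CIP, 2 mice given 0.9% saline by that route. Concanavalin A (ConA, 7 mice) was given intravenously and was set against CIV, 2 mice given 0.9% saline intravenously. Each compound was also set against all 17 vehicle mice. The doses are not given in the sources used here. Corn oil is named among the vehicles without the compound it carried, and a corn oil group was not analysed here. Nothing in the labels ties mice to cages or litters, so p-values measure the spread between the mice of a group.

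Glutathione S-transferases join glutathione to electrophiles, which include the reactive products that cytochromes P450 make from drugs such as acetaminophen and from solvents. The cytosolic enzymes are dimers of subunits from the same class, and hepatocytes hold large amounts of the alpha, mu and pi forms. Many of their genes, Gsta1, Gsta2, Gstm1 and Gstm3 among them, are known targets of the transcription factor NRF2, and several also respond to the nuclear receptors CAR and PXR. In male mouse liver Gstp1 is one of the most abundant of these transcripts.

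The rows for Gsta1 and Gsta2 could not be read apart with confidence, and the sequences show why the sum is given beside each gene. In GENCODE M21 (build GRCm38), Gsta1 lies at chr9:78230656-78242684 and Gsta2 at chr9:78331018-78355788. The predicted genes Gm3776 (chr9:78257129-78269166) and Gm10639 (chr9:78289923-78305525) lie between them. The coding sequences of Gsta1 and Gm3776 differed at 2 of 669 aligned bases, those of Gsta1 and Gsta2 at 13 of 666, and those of Gsta2 and Gm10639 at 10 of 666. Only 7.14% of the 31-base words of Gsta1 transcripts occurred in no other gene, 80.3% also occurred in Gm3776 and 56.6% in Gsta2. Coding bases 449 to 508, counted from the start codon, hold a cluster of the differences. They are printed with capitals where a base differs from Gsta1.
Gsta1: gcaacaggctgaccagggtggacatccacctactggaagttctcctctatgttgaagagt
Gm3776: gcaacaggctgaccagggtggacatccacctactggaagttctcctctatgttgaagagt
Gsta2: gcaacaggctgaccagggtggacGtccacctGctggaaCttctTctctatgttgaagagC
Gm10639: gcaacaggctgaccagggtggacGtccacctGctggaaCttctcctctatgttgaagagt
Gm3776 is identical to Gsta1 over these 60 bases, and Gsta2 differs at 5 of them and Gm10639 at 3. Gstp1 has a close copy as well, Gstp2, whose coding sequence differs at 12 of 630 bases, so Gstp1 is given with the Gstp1 and Gstp2 sum where the call differs. The other members were read more cleanly: 62.3% of the 31-base words of Gstm3, 71.2% of those of Gstm1, 97.3% of those of Gsta3 and 100% of those of Gsta4 occurred in no other gene.

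NRF2 binds antioxidant response elements, whose core is TGACNNNGC, with N standing for any base. RefSeq promoters of GRCm38.p6, 250 bases before to 50 bases after each start, were searched on both strands; they were available for 9 of the 10 members. The core was found in 12.4% of all 32851 promoters and in 1 of the 13 promoters of the members. That one belongs to Gsta3 (chr1:21240335-21240634, forward strand), whose level fell with all 7 compounds as described further on, and the core, in capitals, starts 121 bases before the start site.
Gsta3 promoter: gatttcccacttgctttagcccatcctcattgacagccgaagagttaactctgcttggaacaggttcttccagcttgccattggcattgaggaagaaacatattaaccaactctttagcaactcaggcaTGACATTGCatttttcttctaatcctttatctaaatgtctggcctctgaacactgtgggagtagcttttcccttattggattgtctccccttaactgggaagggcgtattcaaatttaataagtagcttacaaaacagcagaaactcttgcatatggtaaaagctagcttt
The match is a string of letters in this window and shows no binding, and its absence from the other 12 windows says nothing of elements farther away.

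The estimated counts of a library summed to between 13826343 and 35075809 (median 21532116), and mitochondrial genes took 5.11% to 39.3% of a library. Levels are given as CPM, the count scaled by library size in 1 TMM scaling over the 57 mice. Hepatocyte markers were high in every group: the summed level of 6 of them, Alb and Ttr among these, had medians from 22543 CPM with CCl4 to 71764 CPM with MDA.

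The libraries labelled ANIT 1 and MDA 1 each stood closer to the mice of another compound than to their own. The counts of members called with ANIT and MDA against Ctrl are given with and without them. So are the values of most single members against Ctrl, Gsta2 and Gstp1 not among these. The lists of other genes include these libraries, and the library labelled APAP 1, unless it is said otherwise. Over 12360 genes outside the members, each centred on its mean over the mice, the library labelled ANIT 1 had a Pearson r of 0.276 with the mean of ANIT 2 to 4 and of 0.610 with the mean of the MDA mice without MDA 1. The library labelled MDA 1 had an r of 0.533 with ANIT 2 to 4 and of 0.272 with the other MDA mice. The members split in the same way: Gstm3 was at 2964 CPM in the library labelled ANIT 1 and at 13.4 to 81.1 CPM in ANIT 2 to 4, and it was at 35.7 CPM in the library labelled MDA 1 and at 785 to 3488 CPM in the other MDA mice. The library labelled APAP 1 was closest to the ConA mean, with an r of 0.510, against -0.123 for the other APAP mice. In all, 6 of 40 treated libraries were closest to another group, and 17 of 17 vehicle libraries were closest to a vehicle group. The others of the 6 were APAP 6, closest to Ctrl (r of 0.273, against 0.206 with its own group), APAP 2 and MDA 2. APAP 2 was closest to CCl4 (0.170 against 0.136), and MDA 2 to ANIT (0.447 against 0.446, with ANIT 1 and MDA 1 in the means). Labels were used as deposited.

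**Figure D1:**
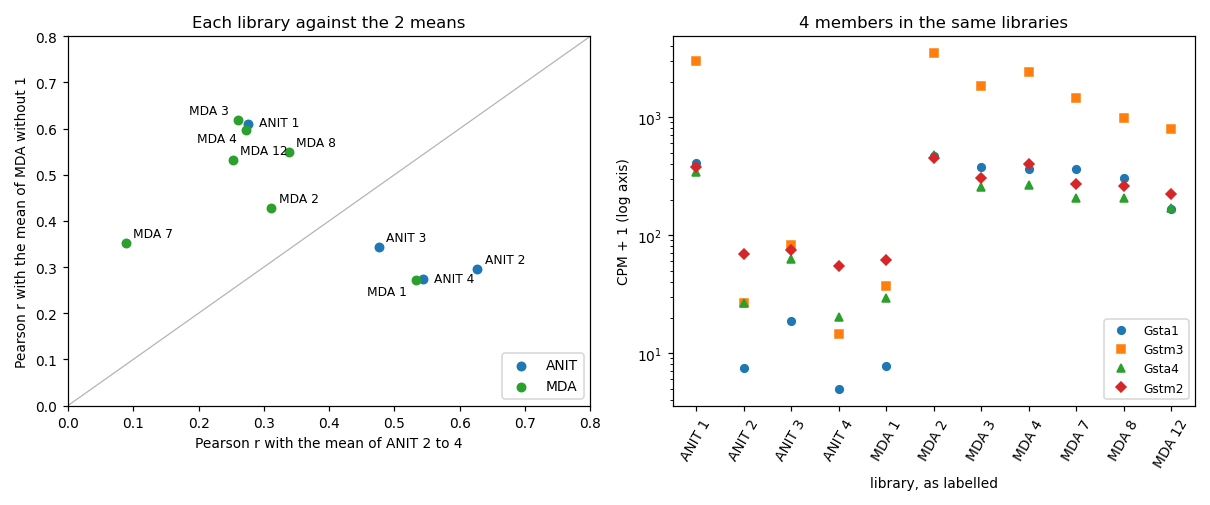
Left, Pearson r of each ANIT and MDA library with the means of ANIT 2 to 4 (x axis) and of MDA without MDA 1 (y axis), each library left out of its own mean; the grey line marks equal values. Right, levels of 4 members in the same libraries as CPM plus 1 on a log axis. The library labelled ANIT 1 sits among the MDA mice and the library labelled MDA 1 among ANIT 2 to 4 in both panels.

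In the 13 Ctrl mice, 3 genes made up most of the summed level of the members. CPM in these files compares genes per length, since the smallest value above 0 fell as transcripts lengthened (median 2.07 for transcripts of 500 to 1000 bases and 0.158 for those of 4000 to 8000). Gstp1 was the highest at 2553 ± 576 CPM (SD, n = 13), then Gstm1 at 2229 ± 496 and Gsta3 at 1863 ± 188, which are 35.0%, 30.5% and 25.5% of the sum. The ranges of the first 2 overlapped, as did those of Gstm1 and Gsta3, so their order is within the spread between mice. Gstm3 followed at 177 ± 141 CPM, and Gsta1 was the lowest at 32.9 ± 27.3 CPM. The summed level was 7299 ± 981 CPM with Ctrl and 11650 ± 4770 with MDA (n = 7). It was 2856 ± 1227 CPM with GAL (n = 4) against 6671 ± 795 with CIP (n = 2), and 1845 ± 325 with ConA (n = 7) against 7753 ± 2053 with CIV (n = 2). Without TMM scaling, as a share of each library's total, the sum was 0.491% with GAL against 0.671% with CIP, where the ranges overlapped. This share was 0.125% with ConA against 0.781% with CIV. It was 1.04% with MDA against 0.701% with Ctrl, and 1.02% with CCl4, whose TMM-scaled sum was 7342 ± 588 CPM. The MDA range overlapped that of Ctrl, and the CCl4 range that of CIP. All 7 ConA mice, at 1429 to 2474 CPM, lay below all 17 vehicle mice. Gstp1 took 59.7% of the sum with ConA and Gstm1 took 42.3% with MDA, where Gstm3 ranked above Gsta3, at 13.5%.

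**Figure D2:**
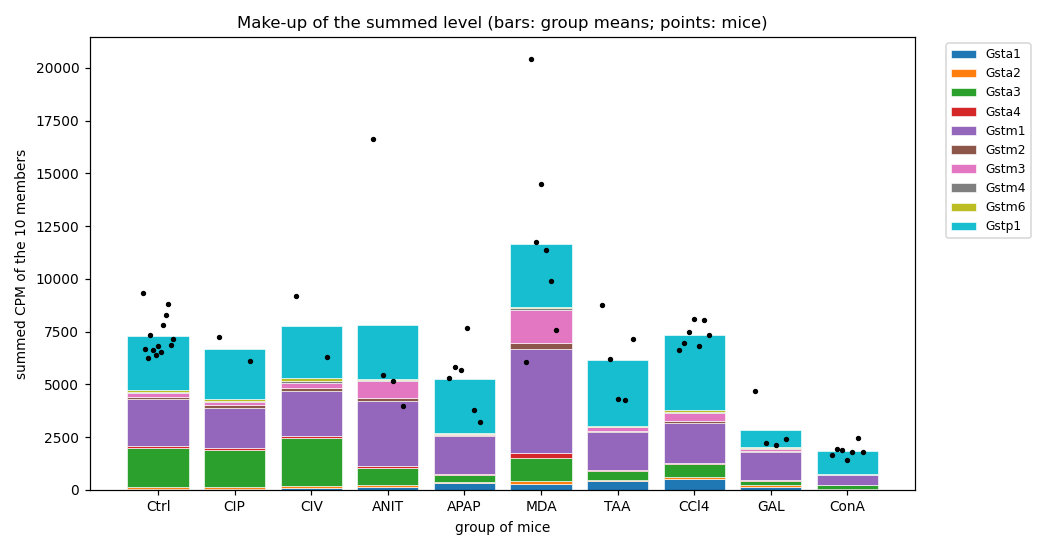
Summed CPM of the 10 members by group; stacked bars are group means of each gene and points are single mice. The MDA bar is the tallest and the ConA bar the shortest, and 1 ANIT point, the library labelled ANIT 1, stands at 16643 CPM above the other 3.

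The vehicle mice differed among themselves in Gsta1, Gstm3, Gstm2 and Gstm4. Gsta1 was at 5.65 to 15.9 CPM in the Ctrl mice numbered 1 to 4, at 17.8 to 28.3 CPM in those numbered 7 to 12 and at 45.4 to 91.2 CPM in those numbered 15 to 18. Gstm3 was at 61.0 to 87.5, 86.8 to 184 and 228 to 557 CPM in the same 3 sets. The 3 ranges did not overlap for Gsta1. Gstm2 was at 148 to 221 CPM in the Ctrl mice numbered 15 to 18, above the 73.2 to 108 CPM of the other 9, and Gstm4 at 68.3 to 117 CPM was above their 30.3 to 64.3 CPM, while Gsta3 ran from 1641 to 2279 CPM with all 3 ranges overlapping. The labels do not say what the numbers stand for, and the source of this spread was not tested. With numbers above 4 as a covariate, 1 member rose and 2 fell with ANIT against Ctrl (19.1% of all genes called), in place of 0 and 2 (28.2%). APAP, MDA and TAA then had 6, 8 and 6 members called, as without it (31.5%, 34.6% and 52.3%). With only mice numbered above 4 these were also 6, 8 and 6 (20.2%, 20.6% and 47.4%). Neither fit parts the Ctrl mice numbered 7 to 12 from those numbered 15 to 18. Without the 4 Ctrl mice numbered above 12, the log2 fold change of Gsta1 with TAA was 4.66 instead of 3.70 and that of Gstm3 with TAA was 0.94 (edgeR adjusted p = 0.0461) instead of 0.14. Gsta1 likewise became 4.15 instead of 3.21 with APAP and 4.08 instead of 3.15 with MDA. Gstm3 became -1.47 instead of -2.26 with APAP and 3.93 instead of 3.15 with MDA. With ANIT, Gsta1 at 2.70 (edgeR adjusted p = 0.0332) and Gstm3 at 2.95 (0.0305) then passed the threshold, with the library labelled ANIT 1 included.

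**Figure D3:**
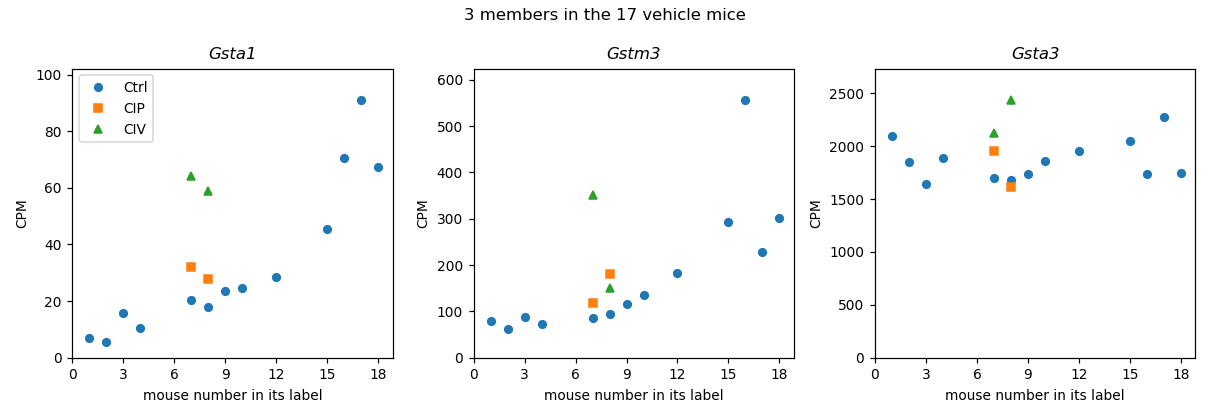
Levels (CPM) of Gsta1, Gstm3 and Gsta3 in the 17 vehicle mice against the number in each mouse's label, with 1 point for each mouse. Among Ctrl mice, each of those numbered 15 to 18 is above all others in Gsta1 and in Gstm3, and Gsta3 shows no such split.

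Against the vehicle of the same route, members moved in both directions with most compounds, and all 10 fell with ConA. A call is an adjusted p under 0.05 in edgeR's quasi-likelihood test with Benjamini-Hochberg adjustment over all genes tested. In bulk tissue, fewer cells of a type and less RNA per cell cannot be told apart. With ANIT, 0 of 10 members rose, against 14.0% of all genes tested, and 2 fell, against 14.2%. By edgeR 3 of the 10 had an unadjusted p under 0.05, and DESeq2 and limma also called 2. Without the library labelled ANIT 1, 6 members fell and 0 rose, where 3976 of 14523 genes were called in either direction. All ANIT mice are numbered 1 to 4. Mean Gstm3 in ANIT 2 to 4 was 39.9 CPM, against 75.3 CPM in Ctrl 1 to 4 and 177 CPM in all 13 Ctrl mice. Gstm4 was at 27.8 CPM against 39.9 and 57.8 CPM, and Gstm2 at 65.0 CPM against 97.7 and 120 CPM. The falls were not tested against Ctrl 1 to 4 alone. Without the library labelled MDA 1, 6 members rose and 2 fell with MDA, as with it, where 4779 of 13744 genes were called. With APAP 1 rose (17.3% of all genes) and 5 fell (14.6%). With MDA 6 rose (17.4%) and 2 fell (16.4%), and with TAA 1 rose (26.4%) and 5 fell (24.0%). With CCl4 2 rose (18.0%) and 1 fell (15.6%), and with GAL 1 rose (12.8%) and 4 fell (15.7%), or 1 and 2 with library totals, where 41% of all genes were called in place of 28.5%. With ConA 0 rose, against 16.8% of all genes, and 10 fell, against 17.3%. In the ConA libraries 14.6% to 39.3% of counts came from mitochondrial genes, against 6.79% and 25.4% with CIV; the part of that in the result was not tested. Groups did not overlap in 1 member with ANIT (8.99% of all genes), 4 with APAP (6.69%), 1 with MDA (4.81%) and 4 with TAA (20.2%). Against the groups of 2 vehicle mice they did not overlap in 4 members with CCl4 (41.0% of all genes), 5 with GAL (52.3%) and 10 with ConA (39.9%). The median log2 fold change of the 10 members was -2.68 with ConA and 0.95 with MDA, against 0.03 over all genes in both comparisons, and it was -0.91 with APAP against 0.07. The 4 gavage compounds share the Ctrl mice, and CCl4 and GAL share the CIP mice.

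**Figure D4:**
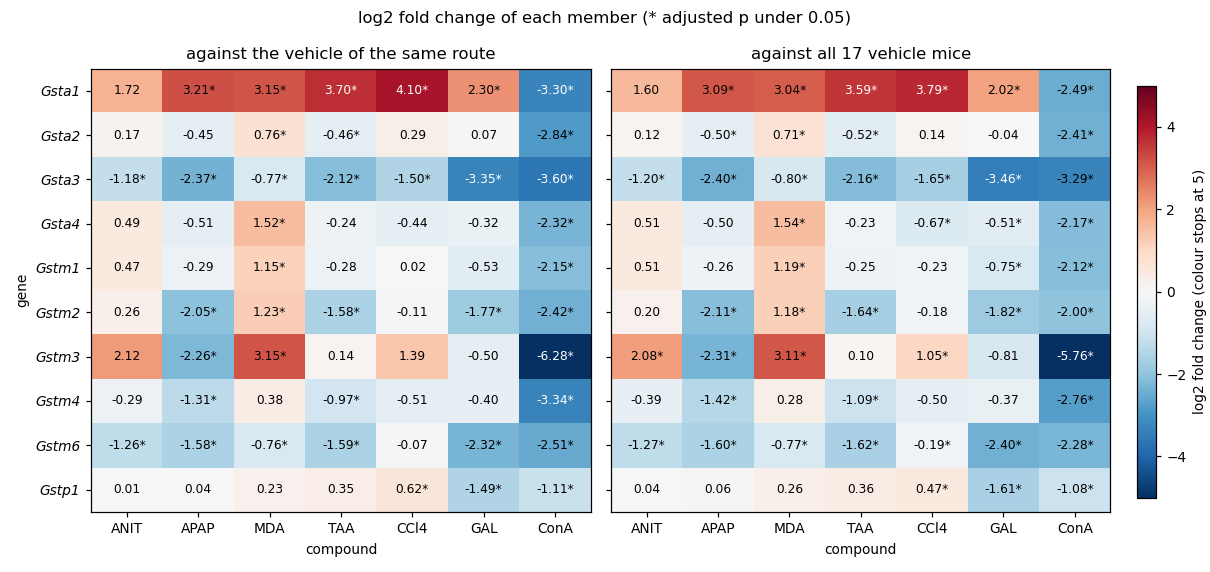
log2 fold change of each member (rows) with each compound (columns) against the vehicle of the same route (left) and against all 17 vehicle mice (right); red is higher, blue is lower, and an asterisk marks an adjusted p under 0.05 in edgeR. The Gsta1 row is higher with 5 compounds and the Gsta3 row is lower with 7.

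Against all 17 vehicle mice 1 member rose with ANIT (13.5% of all genes) and 2 fell (14.5%), 1 rose with APAP (18.1%) and 6 fell (15.3%), and 6 rose with MDA (17.2%) and 2 fell (17.1%). With TAA 1 rose (25.2%) and 5 fell (24.5%), and with CCl4 3 rose (26.2%) and 3 fell (27.2%). With GAL 1 rose (25.1%) and 6 fell (27.5%), and with ConA 0 rose (34.3%) and 10 fell (33.7%). When libraries were scaled by their totals, 5 rose and 1 fell with CCl4 (62.5% of all genes called in either direction in place of 53.4%), 2 rose and 4 fell with GAL (66.2% in place of 52.5%), and 0 rose and 2 fell with ANIT (26.4% in place of 28%). With CCl4, GAL and ConA the share of all genes called was larger than against 2 vehicle mice. The members called grew from 3 to 6 with CCl4 and from 5 to 7 with GAL, beside that larger share, and stayed at 10 with ConA. The 1 member higher with ANIT was Gstm3, and without the library labelled ANIT 1 it was lower, with a log2 fold change of -2.19.

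Gsta1, an alpha-class subunit that is low in untreated liver, rose with 5 of the 7 compounds, more than any other member. It was at 5.65 to 91.2 CPM in the Ctrl mice, with a median of 23.5, and at 32.2 and 27.8 CPM in the CIP mice. With CCl4 it ran from 426 to 634 CPM with a median of 504, and the log2 fold change was 4.10 ± 0.19 (SE; edgeR adjusted p = 3.33e-06). All 7 CCl4 mice lay above both CIP mice. With TAA the 5 mice were at 201, 528, 436, 376 and 542 CPM, and the log2 fold change was 3.70 ± 0.49 (edgeR adjusted p = 3.82e-06). APAP mice ran from 167 to 485 CPM with a median of 252, a log2 fold change of 3.21 ± 0.47 (by edgeR, adjusted p = 3.85e-05). Each TAA and APAP mouse lay above each of the 13 Ctrl mice. Leaving out the library labelled APAP 1 gave 3.33.

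With GAL the 4 mice had 238, 144, 93.9 and 119 CPM of Gsta1, all above both CIP mice, and the log2 fold change was 2.30 ± 0.41 (edgeR adjusted p = 0.0105). This call was lost without either CIP mouse, at an edgeR adjusted p of 0.0627 without CIP 7 and 0.0883 without CIP 8. MDA mice ran from 6.71 CPM, in the library labelled MDA 1, to 466 CPM with a median of 364. The log2 fold change was 3.15 ± 0.55 with that library (edgeR adjusted p = 0.000167) and 3.37 without it. ANIT mice were at 407, 6.49, 17.7 and 3.98 CPM, and only the library labelled ANIT 1 was above the Ctrl mice. Neither the log2 fold change with it, 1.72 ± 0.83 (edgeR adjusted p = 0.133), nor that without it, -1.80 (0.107), passed the threshold against all 13 Ctrl mice. Against the 9 Ctrl mice numbered up to 12, the value with that library passed, at 2.70 (edgeR adjusted p = 0.0332). ConA mice ran from 0 to 17.4 CPM with a median of 4.25, against 64.1 and 59.0 CPM in the CIV mice, and the log2 fold change was -3.30 ± 0.95 (edgeR adjusted p = 0.0215). Without CIV 7 or CIV 8 the call was lost, at 0.0924 and 0.0727.

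Gsta2, the near copy of Gsta1, passed the threshold against the route vehicle with 3 compounds. It rose with MDA (log2 fold change 0.76 ± 0.15, edgeR adjusted p = 0.000707), from 60.7 to 105 CPM in Ctrl to 75.1 to 205 CPM, with overlap. With TAA it was at 53.0, 66.1, 46.9, 45.9 and 79.0 CPM and fell (-0.46 ± 0.15, edgeR adjusted p = 0.0177), a call lost without the Ctrl mice numbered above 12, at 0.0546. ConA mice were at 8.08 to 25.8 CPM, below the CIV mice at 123 and 102 CPM, and the log2 fold change was -2.84 ± 0.33 (edgeR adjusted p = 0.000207). The other 4 comparisons with the route vehicle did not pass the threshold.

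Against the route vehicle the sum of Gsta1 and Gsta2 rose with 4 compounds, whose log2 fold changes were 1.66 with APAP, 1.90 with MDA (2.09 without the library labelled MDA 1), 2.08 with TAA and 2.47 with CCl4, and it fell with ConA, at -2.99. With GAL the sum was at 359, 224, 148 and 206 CPM against 135 and 86.6 CPM in the CIP mice and did not pass the threshold (1.07 ± 0.39, edgeR adjusted p = 0.0842). Against all vehicle mice the GAL sum was higher (0.91 ± 0.24, edgeR adjusted p = 0.00258), and the other 6 compounds, ANIT with no call among them, gave the calls they gave against the route vehicle. With ANIT it did not pass with the library labelled ANIT 1 (0.80, edgeR adjusted p = 0.159) or without it (-0.52, 0.176). In Ctrl, Gsta2 supplied 83.0 ± 15.5 CPM of the sum and Gsta1 the 32.9 ± 27.3 CPM given above. Gm3776 and Gm10639 were measured as genes of their own, at 14.2 ± 11.7 and 3.69 ± 3.62 CPM in Ctrl and at 401 ± 68.9 and 42.0 ± 8.28 CPM with CCl4. Adding them to the sum gave log2 fold changes of 2.04 with APAP, 2.14 with MDA, 2.41 with TAA, 3.04 with CCl4, 1.42 with GAL and -3.03 with ConA. With GAL this wider sum passed the threshold, at an edgeR adjusted p of 0.0428.

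Gsta3 encodes the main alpha-class subunit of untreated mouse liver, and it fell with every one of the 7 compounds against the route vehicle and against all vehicle mice. Ctrl mice ran from 1641 to 2279 CPM with a median of 1851. MDA mice ran from 859 to 1443 CPM with a median of 1046, which was the smallest fall (-0.77 ± 0.10, edgeR adjusted p = 7.53e-06; -0.76 without the library labelled MDA 1). ANIT mice were at 1281, 761, 797 and 455 CPM (-1.18 ± 0.18, edgeR adjusted p = 0.000151; -1.46 without the library labelled ANIT 1). In both groups each mouse lay below each Ctrl mouse.

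TAA mice were at 531, 281, 378, 339 and 533 CPM of Gsta3 (-2.12 ± 0.16, edgeR adjusted p = 2.05e-09). APAP mice ran from 107 to 607 CPM with a median of 403 (-2.37 ± 0.28, edgeR adjusted p = 4.69e-06), and APAP 8 and APAP 11, at 107 and 139 CPM, were below the other 4. CCl4 mice ran from 499.9 to 762 CPM with a median of 580.3, below CIP at 1956 and 1618 CPM (-1.50 ± 0.15, edgeR adjusted p = 9.28e-05). None of these groups overlapped its vehicle group. GAL mice were at 292, 152, 119 and 144 CPM (-3.35 ± 0.36, edgeR adjusted p = 0.00265), and GAL 2 was the highest of them. ConA mice ran from 90.2 to 262 CPM with a median of 199.8, against 2122 and 2442 CPM in the CIV mice (-3.60 ± 0.34, edgeR adjusted p = 7.22e-05). The fall of Gsta3 kept its direction and its call in every alternative run against the route vehicle.

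Gsta4, whose enzyme prefers 4-hydroxynonenal and other products of lipid peroxidation, rose with MDA and fell with ConA against the route vehicle. MDA mice ran from 28.5 CPM, in the library labelled MDA 1, to 471 CPM with a median of 206, against 58.4 to 107 CPM in Ctrl. The log2 fold change was 1.52 ± 0.27 (edgeR adjusted p = 0.000188) and 1.72 without that library, whose level lay below the Ctrl mice while the other 6 lay above them. ConA mice ran from 5.54 to 21.3 CPM with a median of 17.8, below CIV at 75.7 and 92.4 CPM (-2.32 ± 0.34, edgeR adjusted p = 0.000703). ANIT mice were at 341, 25.6, 61.7 and 19.2 CPM. Gsta4 did not pass with all 4 of them (0.49 ± 0.46, edgeR adjusted p = 0.458) and fell without the library labelled ANIT 1 (-1.15, edgeR adjusted p = 0.00364). All 7 CCl4 mice, at 33.1 to 60.2 CPM of Gsta4, lay below both CIP mice, at 63.0 and 77.0 CPM, which did not pass by edgeR (-0.44 ± 0.20, adjusted p = 0.122). Against all vehicle mice Gsta4 was lower with CCl4 (-0.67 ± 0.11, edgeR adjusted p = 7.84e-06), where library totals gave -0.14 (0.411), and with GAL (-0.51 ± 0.16, edgeR adjusted p = 0.00818), where library totals gave 0.34.

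The mu-class genes lie in 1 cluster at chr3:107938847-108044894 (GRCm38), from Gstm6 to Gstm4. Over the 57 mice, the deviations of log2(CPM + 1) from the group means had a Pearson r of 0.690 to 0.932 in the 10 pairs of mu-class genes, highest for Gstm2 and Gstm3. Pairs of an alpha-class and a mu-class gene ran from 0.296 for Gsta1 and Gstm6 to 0.880 for Gsta4 and Gstm3. Among them were 0.786 for Gsta4 and Gstm1, 0.769 for Gsta3 and Gstm6 and 0.352 for Gsta1 and Gstm1. Between the means of the 10 groups r ran from 0.578 to 0.924 in the mu-class pairs. In pairs of an alpha-class and a mu-class gene it ran from 0.00256 for Gsta1 and Gstm2 to 0.949 for Gsta4 and Gstm1. These describe points that share their libraries, with the libraries labelled ANIT 1 and MDA 1 among them. Differences between the genes were not tested. Gstm1, the most abundant of them, passed the threshold against the route vehicle with MDA and ConA only. Ctrl mice ran from 1558 to 3134 CPM with a median of 2105. MDA mice ran from 2340.1 to 8418 CPM with a median of 4815 (1.15 ± 0.20, edgeR adjusted p = 0.000121; 1.27 without the library labelled MDA 1, which was the lowest of the 7). ConA mice ran from 251 to 635 CPM with a median of 445, below CIV at 2812 and 1436 CPM (-2.15 ± 0.34, edgeR adjusted p = 0.00107). With APAP the 6 mice ran from 468 to 3602 CPM with a median of 1792; APAP 1, APAP 8 and APAP 11, at 1498, 605 and 468 CPM, lay below the Ctrl range and the other 3 within or above it (-0.29, not past the threshold).

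Gstm3, a mu-class gene of lower level in Ctrl, spanned 1.55 to 3488 CPM over the 57 mice. It ran from 61.0 to 557 CPM in Ctrl with a median of 116, and from 35.7 to 3488 CPM with MDA with a median of 1461. The log2 fold change was 3.15 ± 0.53 (edgeR adjusted p = 0.000104) and 3.37 without the library labelled MDA 1, the only MDA mouse not above the Ctrl range. With ConA it ran from 1.55 to 6.47 CPM with a median of 3.02, against 351 and 150.0 CPM in CIV (-6.28 ± 0.48, edgeR adjusted p = 3.24e-05). With APAP it ran from 7.78 to 76.3 CPM with a median of 34.8 and fell (-2.26 ± 0.54, edgeR adjusted p = 0.0033), with overlap at the lowest Ctrl mice. ANIT mice were at 2964, 25.3, 81.1 and 13.4 CPM. The log2 fold change changed sign, from 2.12 ± 0.84 (edgeR adjusted p = 0.069) with all 4 to -2.13 (edgeR adjusted p = 0.0389) without the library labelled ANIT 1. CCl4 mice ran from 151 to 681 CPM with a median of 354 against 119 and 181 CPM in CIP, which did not pass (1.39 ± 0.49, edgeR adjusted p = 0.0542), but did pass against all vehicle mice (1.05 ± 0.35, edgeR adjusted p = 0.0141).

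Gstm2 rose with MDA and fell with APAP, TAA, GAL and ConA. In Ctrl it ran from 73.2 to 221 CPM with a median of 105, and with MDA from 60.8 to 446 CPM with a median of 272 (1.23 ± 0.27, edgeR adjusted p = 0.00133; 1.41 without the library labelled MDA 1). APAP mice ran from 15.5 to 41.9 CPM with a median of 27.1 and did not overlap Ctrl (-2.05 ± 0.29, edgeR adjusted p = 2.78e-05). TAA mice, at 49.4, 43.6, 30.1, 22.0 and 48.0 CPM, did not overlap Ctrl either (-1.58 ± 0.28, edgeR adjusted p = 0.000122). GAL mice were at 72.9, 25.1, 23.3 and 23.9 CPM, with GAL 2 apart from the other 3 (-1.77 ± 0.50, edgeR adjusted p = 0.0424). That call was lost without CIP 7 (0.109), without CIP 8 (0.218) and when libraries were scaled by their totals (-0.94, 0.203). Without the library labelled ANIT 1, Gstm2 fell with ANIT (-0.87, edgeR adjusted p = 0.046); with it the value was 0.26 (0.68).

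Gstm6 fell with 6 of 7 compounds against the route vehicle, all but CCl4. It ran from 83.2 to 124 CPM in Ctrl with a median of 108. APAP mice ran from 11.9 to 65.4 CPM with a median of 33.7 (-1.58 ± 0.27, edgeR adjusted p = 0.000194), TAA mice were at 59.1, 32.6, 25.6, 19.8 and 30.1 CPM (-1.59 ± 0.19, edgeR adjusted p = 1.24e-06), and neither overlapped Ctrl. ANIT mice were at 90.3, 32.9, 28.7 and 23.8 CPM, and only the library labelled ANIT 1 reached the Ctrl range (-1.26 ± 0.25, edgeR adjusted p = 0.00125; -1.88 without it). The fall with MDA was the smallest of the 6, at -0.76 ± 0.17 (edgeR adjusted p = 0.00185), and -0.63 without the library labelled MDA 1. GAL mice, at 29.4, 17.0, 16.1 and 19.9 CPM, and ConA mice, at 10.4 to 27.3 CPM with a median of 20.2, lay below CIP and CIV, with log2 fold changes of -2.32 ± 0.25 and -2.51 ± 0.27. CCl4 mice ran from 79.4 to 108 CPM with a median of 97.5 against 105 and 99.5 CPM in CIP (-0.07 ± 0.13, edgeR adjusted p = 0.705).

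Gstm4 fell with APAP (-1.31 ± 0.35, edgeR adjusted p = 0.00673), TAA (-0.97 ± 0.31, 0.0126) and ConA (-3.34 ± 0.30, 5.81e-05) and did not pass with the other 4 compounds over all their mice. Without the library labelled ANIT 1 it fell with ANIT (-1.04, edgeR adjusted p = 0.0274), and without the Ctrl mice numbered above 12 it rose with MDA (0.68, edgeR adjusted p = 0.0122). It ran from 30.3 to 117 CPM in Ctrl, and from 8.71 to 43.3 CPM with APAP, with overlap. The TAA call was lost without the Ctrl mice numbered above 12, at an edgeR adjusted p of 0.0503.

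Gstp1, the only pi-class member, did not pass the threshold with any of the 4 gavage compounds, with log2 fold changes of 0.01 with ANIT, 0.04 with APAP, 0.23 with MDA and 0.35 with TAA and SEs of 0.15 to 0.20. Ctrl mice ran from 1809.7 to 4093 CPM with a median of 2566, and APAP mice from 2061 to 2909 CPM with a median of 2619.9. With CCl4 it ran from 3009.8 to 4156 CPM with a median of 3560.3 and lay above CIP at 2879 and 1825 CPM (0.62 ± 0.18, edgeR adjusted p = 0.0245). That call was lost without CIP 8 (0.221), and the Gstp1 and Gstp2 sum did not pass (0.56 ± 0.20, 0.0529) but was higher against all vehicle mice (0.48 ± 0.14, edgeR adjusted p = 0.00439). GAL mice were at 1011, 753, 916 and 694 CPM, below CIP (-1.49 ± 0.25, edgeR adjusted p = 0.0088). ConA mice ran from 711 to 1438 CPM with a median of 1097, below CIV at 3219.8 and 1714 CPM (-1.11 ± 0.31, edgeR adjusted p = 0.0191). The GAL call was lost without CIP 7 (0.052) and with library totals (-0.74, 0.0904), and the ConA call without CIV 7 (-0.54, 0.312).

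**Figure D5:**
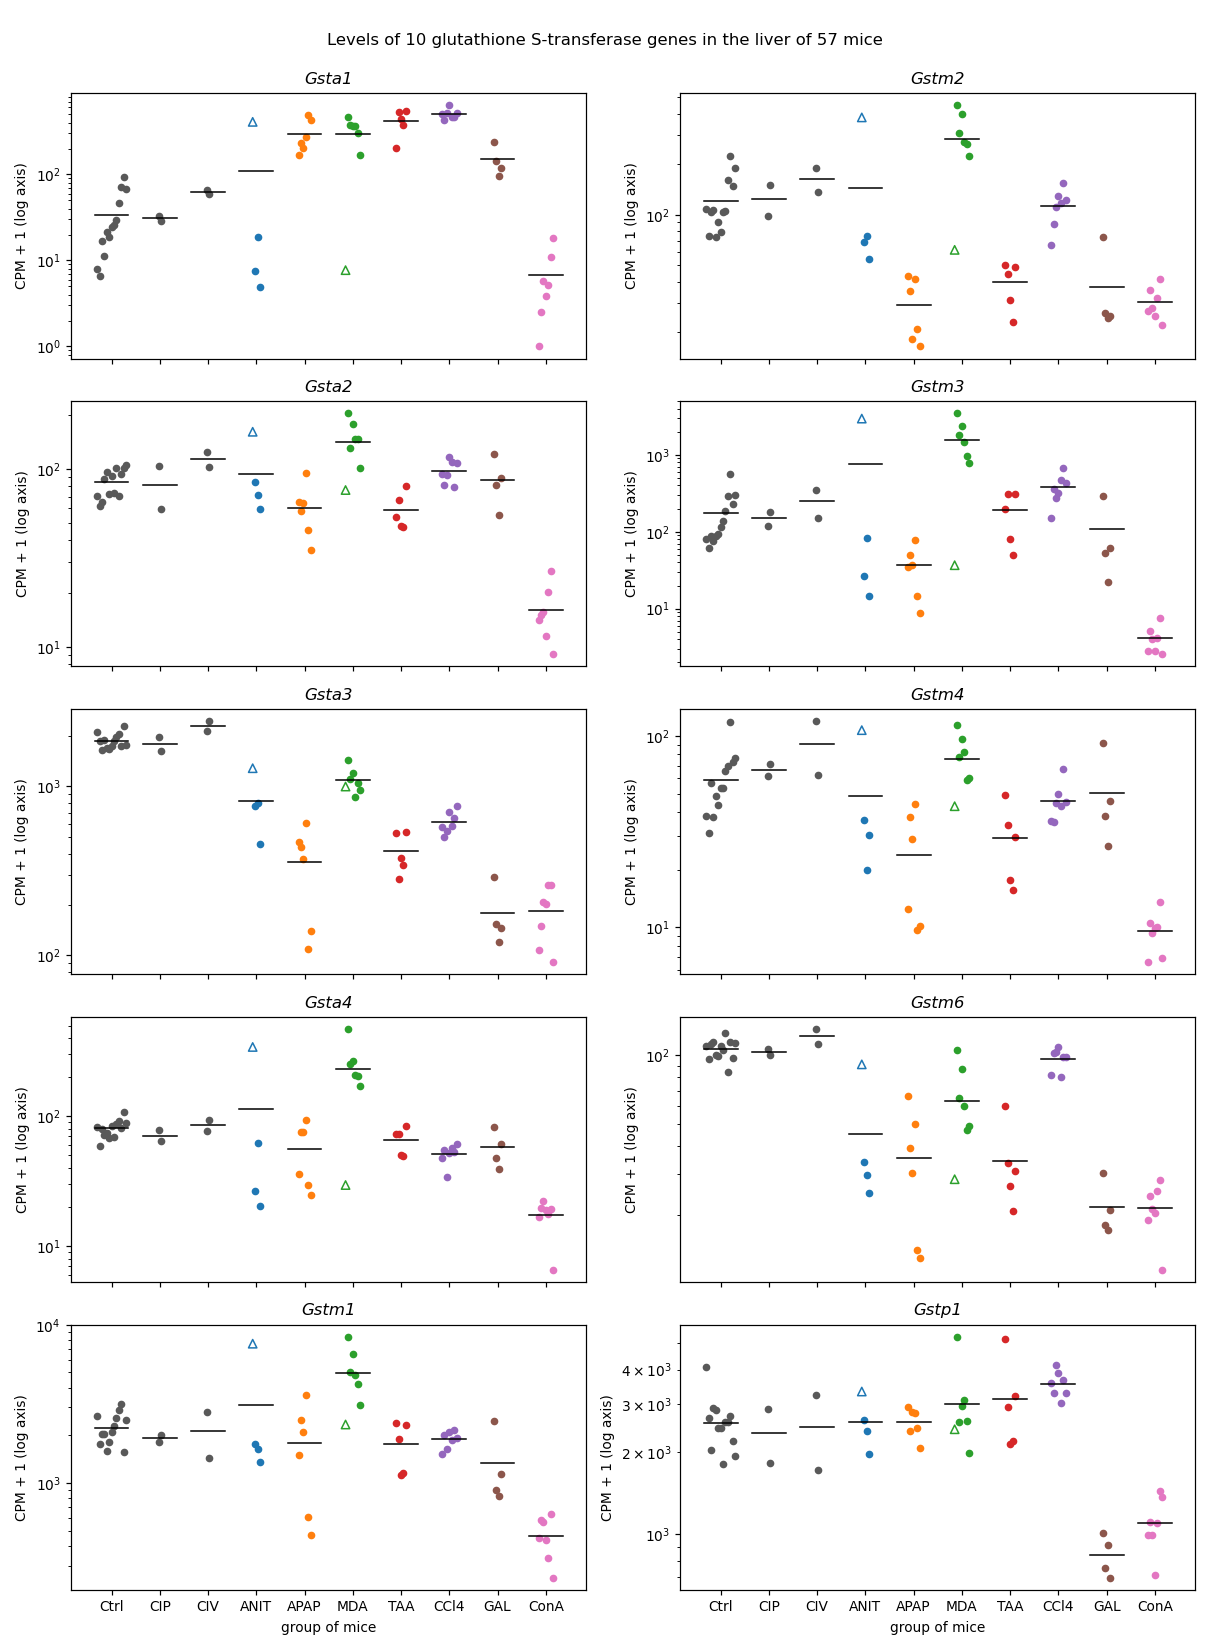
Level of each member in each of the 57 mice, as CPM plus 1 on a log axis, by group; filled points are mice, open triangles the libraries labelled ANIT 1 and MDA 1, and lines group means. Gsta3 lies below its vehicle groups in all 7 treated groups, and all 10 members are low with ConA.

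The scaling of libraries sets the zero of these comparisons. Scaling by library totals instead of TMM shifted the median of all genes by 0.76 with GAL, 0.43 with CCl4, -0.59 with ConA, -0.22 with ANIT and 0.16 with APAP on the log2 scale, and by less than 0.1 with MDA and TAA. Under library totals all 10 members still fell with ConA, Gsta3 and Gstm6 still fell with GAL, and Gsta1 still rose with APAP, MDA, TAA, CCl4 and GAL. Against all vehicle mice, the falls of Gsta4 and Gstm1 with GAL and of Gstm6 with CCl4 changed sign, to 0.34, 0.11 and 0.35. Without GAL 2, 8 members were called with GAL against CIP in place of 5, where the share of all genes called was 42.5% in place of 28.5%, and Gstm1 (-0.99), Gstm3 (-1.73) and Gstm4 (-0.85) were the additional falls. Without CIP 7 the count was 2, with 10.8% of all genes called.

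Compounds given by the same route were also set against each other. MDA stood above APAP in 6 of 10 members (4.05% of all genes) and below it in 0 (5.38%). The 6 were Gsta2, Gsta3, Gsta4, Gstm2, Gstm3 and Gstm4, and without the library labelled MDA 1 there were 7, with Gstm1, where 1158 of 13385 genes were called. The largest of these differences were 5.42 ± 0.85 for Gstm3 (edgeR adjusted p = 0.00207) and 3.29 ± 0.41 for Gstm2 (0.000496) on the log2 scale. TAA stood below MDA in 7 of 10 members (14.3% of all genes) and above it in 0 (15.8%). The 7 were Gsta2, Gsta3, Gsta4, Gstm1, Gstm2, Gstm3 and Gstm4; Gstm2 differed by -2.82 ± 0.41 and Gsta3 by -1.36 ± 0.20, and without the library labelled MDA 1 there were 8, with Gstm6, where 4020 of 13612 genes were called. Gsta1 was not among them in either comparison: MDA minus APAP was -0.07 with a 95% interval of -1.20 to 1.07, and TAA minus MDA was 0.55 with an interval of -0.63 to 1.74. GAL stood below CCl4 in 6 members (22.2% of all genes) and above it in 0 (20.3%). The 6 were Gsta1 (-1.71 ± 0.22), Gsta3 (-1.75 ± 0.23), Gstm2 (-1.57 ± 0.35), Gstm3 (-1.81 ± 0.64), Gstm6 (-2.16 ± 0.17) and Gstp1 (-2.01 ± 0.13).

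TAA and APAP differed in 0 of 10 members by edgeR, where 1.61% of all genes were higher and 1.01% lower with TAA. Gstm3 was the 1 member with an unadjusted p under 0.05, and its difference of 2.39 ± 0.60 had an edgeR adjusted p of 0.0587. DESeq2 called it (0.00133), limma called none, and edgeR called it without the library labelled APAP 1 (0.0378). The 95% interval of the difference reached from 1.21 to 3.58 for Gstm3, from -0.16 to 1.13 for Gsta1 and from -0.56 to 1.02 for Gsta3. TAA stood below ANIT in Gsta3 (-0.96) and Gstm2 (-1.85), 2 of 10 members against 11.1% of all genes, and above it in 0 (15.1%). APAP stood below ANIT in Gstm2 (-2.30), 1 of 10 members against 2.35% of all genes, and above it in 0 (3.63%). Without the library labelled ANIT 1 these calls were lost, and Gsta1 was instead higher with TAA (5.51, edgeR adjusted p = 0.000671) and with APAP (5.01, 0.00698) than with ANIT.

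MDA and ANIT differed in 0 of 10 members and in 0% of the 13360 genes tested by edgeR. At an unadjusted p under 0.05 there were 1253 genes and 0 members, and DESeq2 called 78 genes and limma 0. Without the libraries labelled ANIT 1 and MDA 1, edgeR called 627 genes of 13657 and 8 of 10 members, all higher with MDA. Gstm3 then differed by 5.52 (edgeR adjusted p = 0.0057), Gsta1 by 5.18 (0.00247), Gsta4 by 2.88 (0.0104), Gstm2 by 2.28 (0.00288) and Gstm1 by 1.75 (0.0167); Gsta2, Gstm4 and Gstm6 were the other 3. Gsta3 (0.71, 0.116) and Gstp1 (0.40, 0.487) did not pass.

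Other glutathione transferases were followed from a list of 17 symbols, 15 of which were in the table. Of those tested, 0 rose and 7 of 14 fell with APAP, 1 rose and 8 of 14 fell with TAA and with CCl4, 0 rose and 7 of 14 fell with GAL, and 0 rose and 9 of 13 fell with ConA. The theta-class gene Gstt1 fell with APAP, from 287 ± 33.0 CPM to 118 ± 30.6 CPM (-1.24 ± 0.13), and with CCl4 (-2.13 ± 0.17) and ConA (-2.02 ± 0.26). Mgst1, the abundant microsomal transferase, fell with APAP, from 6429 ± 808 to 2807 ± 841 CPM (-1.16 ± 0.16, edgeR adjusted p = 1.81e-05). Gstt2 rose with MDA (1.25 ± 0.11) and with ANIT (1.48 ± 0.14). With MDA 2 of 12 rose and 6 fell, and with ANIT 1 of 13 rose and 4 fell.

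Known NRF2 targets outside the transferases rose in most groups. Of 10 listed genes, Nqo1 and Hmox1 among them, 8 of 9 tested rose with ANIT, 5 of 9 with APAP and 9 of 9 with MDA. With TAA and with CCl4 7 of 10 rose, and with GAL 6 of 10, while 1 of 9 rose and 1 fell with ConA against the 2 CIV mice. Against all vehicle mice, 4 of the 9 rose and 5 fell with ConA, where 34.3% of all genes were higher and 33.7% lower. With APAP, 3 of 9 rose and 1 fell without the library labelled APAP 1, and the median log2 fold change of the list was 0.16 instead of 0.87. With ANIT, 7 of 9 rose without the library labelled ANIT 1, and without that labelled MDA 1, 9 of 9 rose with MDA. With all mice, falls were called for 2 of the 9 with APAP and 1 of the 10 with TAA and with GAL. Over all genes 12.8% to 26.4% were higher in the 7 comparisons with the route vehicle, and 14.2% to 24.0% were lower. These are also the shares beside the counts of the other lists. Srxn1, which encodes sulfiredoxin, rose with ANIT (2.34 ± 0.28), APAP (2.34 ± 0.37), MDA (2.60 ± 0.23), TAA (3.53 ± 0.22), CCl4 (4.94 ± 0.32) and GAL (3.99 ± 0.38). With APAP its value was 1.38 ± 0.22 without the library labelled APAP 1. With ConA the haem-degrading enzyme Hmox1 rose (3.54 ± 0.31) and the aldehyde oxidase Aox1 fell (-2.25 ± 0.29). The list of 16 genes of glutathione supply and export shares Gclc, Gclm and Slc7a11 with the NRF2 list, and they are counted in both. In it 7 of 15 rose and 0 fell with ANIT, 4 of 15 rose and 5 fell with APAP, and 8 of 14 rose and 2 fell with MDA. Without the libraries labelled ANIT 1, APAP 1 and MDA 1 these were 7 and 0, 3 and 5, and 8 and 2. Of 16 tested, 5 rose and 4 fell with TAA and 6 rose and 5 fell with CCl4 and with GAL, and of 14, 2 rose and 2 fell with ConA. Gsr, which reduces oxidised glutathione, rose with MDA (1.27 ± 0.11) and TAA (1.48 ± 0.13). Cth, the cystathionine lyase that supplies cysteine, rose with MDA (1.01 ± 0.21) and fell with APAP (-2.07 ± 0.31), ConA (-2.11 ± 0.43) and GAL, from 254 ± 111 CPM in CIP to 16.2 ± 9.48 CPM. With TAA it was lower against all vehicle mice (-1.48 ± 0.23, edgeR adjusted p = 9.05e-06). With ANIT and CCl4 Cth was not among the genes named.

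Markers of liver cell types moved in the same groups. Of 6 pericentral hepatocyte markers, 5 fell with APAP, 4 with MDA, 4 with TAA, 5 with CCl4, 4 with GAL, and 1 with ANIT and with ConA. Without the libraries labelled APAP 1, MDA 1 and ANIT 1 these were 6 with APAP, 5 with MDA and 2 with ANIT. Their summed level ran from 3213 to 5251 CPM in Ctrl, from 83.2 to 4016 CPM with APAP, from 620.4 to 992 CPM with CCl4 and from 1509 to 5558 CPM with ConA. Of 6 general hepatocyte markers, 6 fell with GAL and 5 with CCl4, and 1 fell and 1 rose with ConA. Of 5 periportal hepatocyte markers, 5 fell with TAA, CCl4 and GAL, 3 with APAP and ConA, and 2 with ANIT and MDA. Their summed level was 663 to 1900 CPM with ConA against 2467 to 2942 CPM with CIV, with no overlap, and 516 to 778 CPM with GAL against 2602 to 3590.1 CPM with CIP. Neutrophil markers rose in 5 of 5 tested with TAA, 4 of 5 with GAL, 3 of 4 with APAP and ConA, 2 of 5 with CCl4, 2 of 4 with MDA and 1 of 4 with ANIT. Without the same 3 libraries, 4 periportal markers fell with APAP, and 3 neutrophil markers rose with APAP, 3 with MDA and 0 with ANIT. The summed hepatocyte markers of the ConA mice, 36318 to 80100 CPM, overlapped those of the CIV mice, 43417 to 62640 CPM. All 5 Kupffer cell markers fell with ConA, to a summed 22.9 to 49.8 CPM from 277 to 280 CPM in CIV, and 4 of 4 haemoglobin genes rose with APAP, TAA and ConA. The part of these shifts in the transferase results was not tested.

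Over the means of the 10 groups, the genes outside the members most like the Gsta1 and Gsta2 sum were Gm3776 (Pearson r = 0.956) and Gm10639 (0.943), the near copies printed above, followed by Srsf6 (0.936). Those most like Gstp1 were Stub1 (0.957) and Mbd3 (0.948). These values describe 10 points that share their libraries.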

How the data were processed

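Liver RNA of 57 mice was sequenced from stranded mRNA libraries as single-end reads. The values deposited are estimated counts for each gene, and the submitters' processing notes name Salmon 1.6.0, R 4.1.3 and GRCm39; how each was used, and the annotation, are not given in the sources used here. The estimated counts behave as values already divided by transcript length, which no header states. Symbols came from a gene name table, which matched 51482 of 54307 IDs. Values were rounded to whole numbers, filtered with filterByExpr, scaled by TMM and tested with edgeR 4.0.16 (R 4.3.3) in 2 groups at a time, with an SE taken as the fold change over the root of F. DESeq2 1.42.0, limma 3.58.1 (log2(CPM + 1)), library totals, other filters, the replicate number as a block, numbers above 4 as a covariate and left-out mice were alternatives. Steps were tested on simulated data. Library totals of 13826343 to 35075809 need not be numbers of reads, so read depth is not known from them. The members and gene lists were chosen with earlier results of these data known. Named context genes were those with the largest called changes, up to 3 a list and comparison. The genes most like Gstm1 over the group means are not reported here.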

Additional observations from a re-analysis of the deposited data

Results flagged for a closer look

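Dixon's test at the 95% level was run on log2(CPM + 1), for a gene (or the Gsta1 and Gsta2 sum) in a group of 4 to 10 mice. In 9 of 77 such combinations 1 mouse lay far from the others, which chance gives in about 1 in 20. Levels are printed in CPM. The library labelled MDA 1 was low in 4 of them: Gsta1 was at 6.71 CPM against 166 to 466 CPM in the other 6 MDA mice, Gsta4 at 28.5 against 169 to 471, Gstm2 at 60.8 against 223 to 446, and Gstm3 at 35.7 against 785 to 3488. The library labelled ANIT 1 was high in 3: Gstm1 was at 7588 CPM against 1359 to 1771 CPM in the other 3 ANIT mice, Gstm2 at 378 against 53.6 to 74.0, and the Gsta1 and Gsta2 sum at 568 against 62.3 to 90.1. GAL 2 had 72.9 CPM of Gstm2, where the other 3 GAL mice had 23.3 to 25.1 CPM. ConA 12 had 5.54 CPM of Gsta4, where the other 6 ConA mice had 15.7 to 21.3 CPM.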

How the results depend on the processing

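Leaving out the libraries labelled ANIT 1, MDA 1 or APAP 1 or the Ctrl mice numbered above 12, and adding Gm3776 and Gm10639, were chosen after seeing the data. Members called of 10 changed by over 1.5 times in these cases, given with the share of all genes called in that fit; the cause was not tested unless fewer mice were the change itself. With ANIT against Ctrl, 2 (28.2%) became 1 with the replicate number as a block (6.84%) and 4 without the Ctrl mice numbered above 12 (27.5%). The count became 6 without the library labelled ANIT 1 (27.4%), and 2 to 6 with 1 ANIT mouse left out (17.5% to 27.4%). Against all vehicles the 3 (28%) became 6 without that library (26.9%), and 3 to 6 with 1 ANIT mouse left out (17.5% to 26.9%). With APAP the block gave 2 of 6 against Ctrl (1.65% in place of 31.8%) and 4 of 7 against all vehicles (13.2% in place of 33.4%). DESeq2 gave 5 with CCl4 against CIP (37.3% in place of 33.5%). With GAL against CIP library totals gave 3 (41% in place of 28.5%), and leaving out 1 mouse gave 2 to 8 (9.49% to 42.5%). For APAP against ANIT (5.98%), DESeq2 (15.3%), limma (5.45%), no filter (1.37%) and the block (0%) each gave 0 members. Leaving out 1 ANIT mouse gave 0 to 1 (0.934% to 4.92%). For TAA against ANIT (26.2%), library totals (23.4%), no filter (11.8%) and the block (0.861%) gave 0 members, and DESeq2 gave 1 (31.6%). Leaving out the library labelled ANIT 1 gave 1 (24.1%), and leaving out 1 mouse gave 0 to 2 (17.5% to 32.2%). MDA against ANIT gave 8 without the libraries labelled ANIT 1 and MDA 1 (4.59% in place of 0%). TAA against APAP (2.62%) gave 1 with DESeq2 (8.27%) and 1 without the library labelled APAP 1 (14.4%). The block gave 0 for MDA against APAP (0% in place of 9.43%) and 3 for TAA against MDA (10.4% in place of 30%).

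Among values past the threshold before or after the change, signs turned without the library labelled ANIT 1. Against Ctrl, Gsta4 became -1.15 (to 0.84 with another ANIT mouse left out), Gstm2 -0.87 (to 0.53) and Gstm3 -2.13 (to 2.53). Against all vehicles, Gsta4 became -1.15 (to 0.85), Gstm2 -0.94 (to 0.47) and Gstm3 -2.19 (to 2.49), and Gstm3 was -0.61 with limma and -0.21 with the block. Library totals turned Gstm6 to 0.35 with CCl4 and Gsta2, Gsta4 and Gstm1 to 0.80, 0.34 and 0.11 with GAL, against all vehicles. Without that library Gsta1 also went from 1.72 to -1.80 and the Gsta1 and Gsta2 sum from 0.80 to -0.52 against Ctrl, with no call in either. Of 2730 single values under an alternative, each fit counted once, 3 turned sign with a call before or after and 31 lost their call against the route vehicle, 9 and 30 against all vehicles, and 0 and 40 between compounds.

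The numbers were not taken as pairs, since in no comparison with 3 or more shared numbers did the deviations of every same-numbered pair correlate above 0.1. The mean correlation was 0.0376 for ANIT and Ctrl, and among these comparisons it ran from -0.146 for MDA and ANIT (lowest pair -0.396) to 0.145 for TAA and Ctrl (pairs from -0.00423 to 0.292). The block was fitted except for CCl4 and CIP, ConA and CIV, and GAL and CCl4; for these no paired analysis was possible because they share fewer than 2 numbers. Vehicle groups of 2 mice, and groups of 4 to 7 treated mice, limit the precision of all comparisons; low levels such as Gsta1 with ConA rest on few counts.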

Other observations

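The receptors and regulators named for these genes also changed. Nr1i2, which encodes PXR, rose with MDA (1.15 ± 0.12 on the log2 scale) and ANIT (0.88 ± 0.16) and fell with APAP (-0.59 ± 0.15), TAA (-0.59 ± 0.12), CCl4 (-0.89 ± 0.13) and ConA (-1.88 ± 0.19), all calls by edgeR against the route vehicle. Nr1i3, which encodes CAR, rose with ANIT (0.75 ± 0.26) and fell with APAP (-0.63 ± 0.18), TAA (-0.77 ± 0.14), CCl4 (-0.89 ± 0.20) and ConA (-2.27 ± 0.31). With GAL neither was called against CIP, and both were lower against all vehicles, Nr1i3 at -1.94 ± 0.28 and Nr1i2 at -1.79 ± 0.28. Nfe2l2, which encodes NRF2, rose with MDA (0.37 ± 0.10), TAA (0.90 ± 0.12), GAL (1.78 ± 0.22) and ConA (0.90 ± 0.28). Bach1, whose protein competes with NRF2 for its sites, rose with ANIT (1.51 ± 0.20), MDA (0.82 ± 0.17), TAA (1.55 ± 0.19) and ConA (1.30 ± 0.35). Of the 7 genes on this list, 4 rose and 0 fell with ANIT, 4 rose and 1 fell with MDA, and 0 rose and 3 fell with CCl4. Some of these values fall outside the rule on named genes, which takes up to 3 genes of a list per comparison, and were added after they were seen. These values include the libraries labelled ANIT 1, MDA 1 and APAP 1. Without them 4 of the 7 rose and 0 fell with ANIT, 3 rose and 1 fell with MDA, and 0 rose and 3 fell with APAP, where 0 rose and 2 fell with it; Nr1i2 was then -0.47 ± 0.12 and Nr1i3 -0.53 ± 0.17 with APAP.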
